A study of Mus musculus with 15 samples.

Results

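The results describe 49 mouse genes of the cell cycle and of DNA replication in wounded and normal skin, out of 18929 genes in the deposited table. They were chosen by symbol: the subunits and loading factors of the replicative helicase (10 genes), enzymes of nucleotide supply with the sliding clamp (5), G1/S cyclins, cell cycle transcription factors and checkpoint genes (7), mitotic cyclins, kinases and factors of the anaphase-promoting ubiquitin ligase (12), and proteins of kinetochore, spindle and chromosomes (15). The rule uses symbols and no measured value, although the list was drawn up with earlier results of these data known. All 49 symbols were found, and all 49 passed the filter on low counts, with mean counts per sample between 95.4 and 2936.

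Bulk skin RNA was sequenced in 5 groups of 3 samples from wild-type male balb/c mice, 4 to 6 weeks old. Round full-thickness dorsal wounds of 10 mm or 15 mm had been covered with Matrigel microbeads. In the HDB groups, high-density beads of human umbilical cord mesenchymal stromal cells (84000 cells in a 10 mm wound and 180000 in a 15 mm wound) were scattered among cell-free beads, and in the acellular groups all beads were free of cells. The fifth group was normal, unwounded skin. Sampling was stated as 4 weeks after implantation, whereas the wound experiment was stated to end on day 21. The deposited genes are mouse genes, so levels are those of the host tissue as far as the mapping separated mouse from human RNA. No label ties samples to separate mice, so p-values measure the spread between samples of a group.

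A dividing cell passes through these genes in order. In G1 the helicase made of Mcm2 to Mcm7 is loaded on DNA by Cdc6 and Cdt1, and cyclin E with its kinase and the E2F factors start S phase, in which ribonucleotide reductase supplies building blocks and Pcna holds the polymerases on the template. In G2 and M, Foxm1 and Mybl2 drive the genes of cyclins A and B, Cdk1, the Aurora and Polo kinases, the kinetochore and the spindle. Cdc20 and Ube2c then help the anaphase-promoting complex to destroy cyclin B. In skin, basal keratinocytes and the hair matrix are well-known dividing cells. In bulk RNA, more dividing cells and more of these transcripts per cell cannot be told apart.

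The sequence before the transcription start carries known elements for both groups of genes: CCAAT boxes, cell cycle homology regions (CHR) and E2F sites. They were searched in the 250 bases before each start in RefSeq (GRCm38.p6), on both strands, with CHR as TTTGAA or TTCGAA, E2F as TTTCCCGC, TTTCGCGC, TTTGCCGC or TTTGGCGC, and CCAAT as CCAAT. Of the 49 genes, 41 matched an entry. A CCAAT box was found in 68.3% of them, compared with 40.0% of the tested genes with an entry and 37.5% of all genes listed. CHR letters were found in 29.3%, compared with 15.4% of tested and 19.6% of all genes, and E2F letters in 12.2%, compared with 3.6% and 2.16%. CCAAT boxes were found in 18 of 23 matched genes of both mitosis classes (10 of 10 in the cyclin and kinase class) and in 9 of 13 replication genes, and CHR words in 9 of 23 and 3 of 13. E2F words were found in 4 of 13 replication genes, all 4 in the helicase and loading class, and in 1 of 23 mitosis genes. The windows below are those of the most abundant gene in 3 classes whose window held at least 2 kinds of these motifs and touched no annotated exon. They are shown because they put the CCAAT boxes that mitosis and replication genes have beside the E2F words of a helicase subunit, with motif letters in capitals and the last base next to the start.
Ccnb2, cyclin B2, minus strand of chr9:70421555-70421804: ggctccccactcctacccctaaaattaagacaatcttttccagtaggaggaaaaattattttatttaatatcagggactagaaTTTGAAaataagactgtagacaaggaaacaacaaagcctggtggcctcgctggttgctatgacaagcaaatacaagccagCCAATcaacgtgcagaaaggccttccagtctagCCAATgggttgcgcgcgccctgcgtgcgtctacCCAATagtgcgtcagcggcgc
Kif11, the spindle motor Eg5, plus strand of chr19:37376132-37376381: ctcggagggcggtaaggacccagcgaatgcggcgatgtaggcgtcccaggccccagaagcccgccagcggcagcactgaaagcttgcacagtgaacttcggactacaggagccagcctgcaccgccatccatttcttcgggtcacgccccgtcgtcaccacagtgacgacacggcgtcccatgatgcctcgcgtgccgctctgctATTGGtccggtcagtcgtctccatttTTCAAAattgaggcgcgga
Mcm6, a helicase subunit, minus strand of chr1:128359706-128359955: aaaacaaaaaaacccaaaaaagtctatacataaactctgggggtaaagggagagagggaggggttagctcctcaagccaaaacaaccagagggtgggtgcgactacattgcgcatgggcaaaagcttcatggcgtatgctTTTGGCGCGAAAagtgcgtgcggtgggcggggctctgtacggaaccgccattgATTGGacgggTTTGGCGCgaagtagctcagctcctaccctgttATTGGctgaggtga

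The Ccnb2 window held 3 CCAAT boxes, starting 87, 54 and 21 bases before the start, and the Kif11 window held 1 such box, read on the other strand, 45 bases before the start with a CHR word 19 bases before it. In the Mcm6 window, E2F words began 110, 106 and 47 bases before the start, and the first 2 of these overlapped. The same window held 2 CCAAT boxes, read on the other strand. A match of letters is a description and shows no binding.

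Levels are given as CPM, the count scaled to a common library total with trimmed-mean (TMM) factors. The libraries held 15840551 to 18404188 counts in all, and the rarest of the 49 genes still had 18 counts in its lowest sample. Skin markers were present in all groups: a list of 7 basal keratinocyte genes summed to 6154 to 8307 CPM in normal skin and 6646 to 20321 CPM in wounds. Skeletal muscle genes (7 of 7 found) summed to 42317 to 50726 CPM in normal skin and 534 to 30225 CPM in the 12 wound samples, so every wound sample held less muscle RNA than every normal sample.

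Replicate 1 of the acellular 15 mm group stood apart. It was the highest of the 15 samples in 48 of the 49 genes, by a median of 2.13 times the second highest sample (range 1.09 to 3.09), and the exception was Gins2. Its summed level of the 49 genes was 4402 CPM, whereas the other 11 wound samples lay between 957 and 2069 CPM and normal skin between 575 and 648 CPM. The same sample held 25733 CPM of a list of hair shaft and inner root sheath genes (17 of 18 found), which summed to 9.26 to 11.5 CPM in normal skin and 22.1 to 2051 CPM in the other wounds. Its 7 hair matrix transcription factor genes summed to 1425 CPM (116 to 360 CPM in the other samples) and its 5 melanocyte genes to 2357 CPM (38.2 to 310 CPM). Replicate 2 of that group had the second highest hair sum, 2051 CPM, with 979 CPM of the 49 genes. The part of the hair genes in the results was not tested, and values without replicate 1 are given beside the results it touches most.

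**Figure D1:**
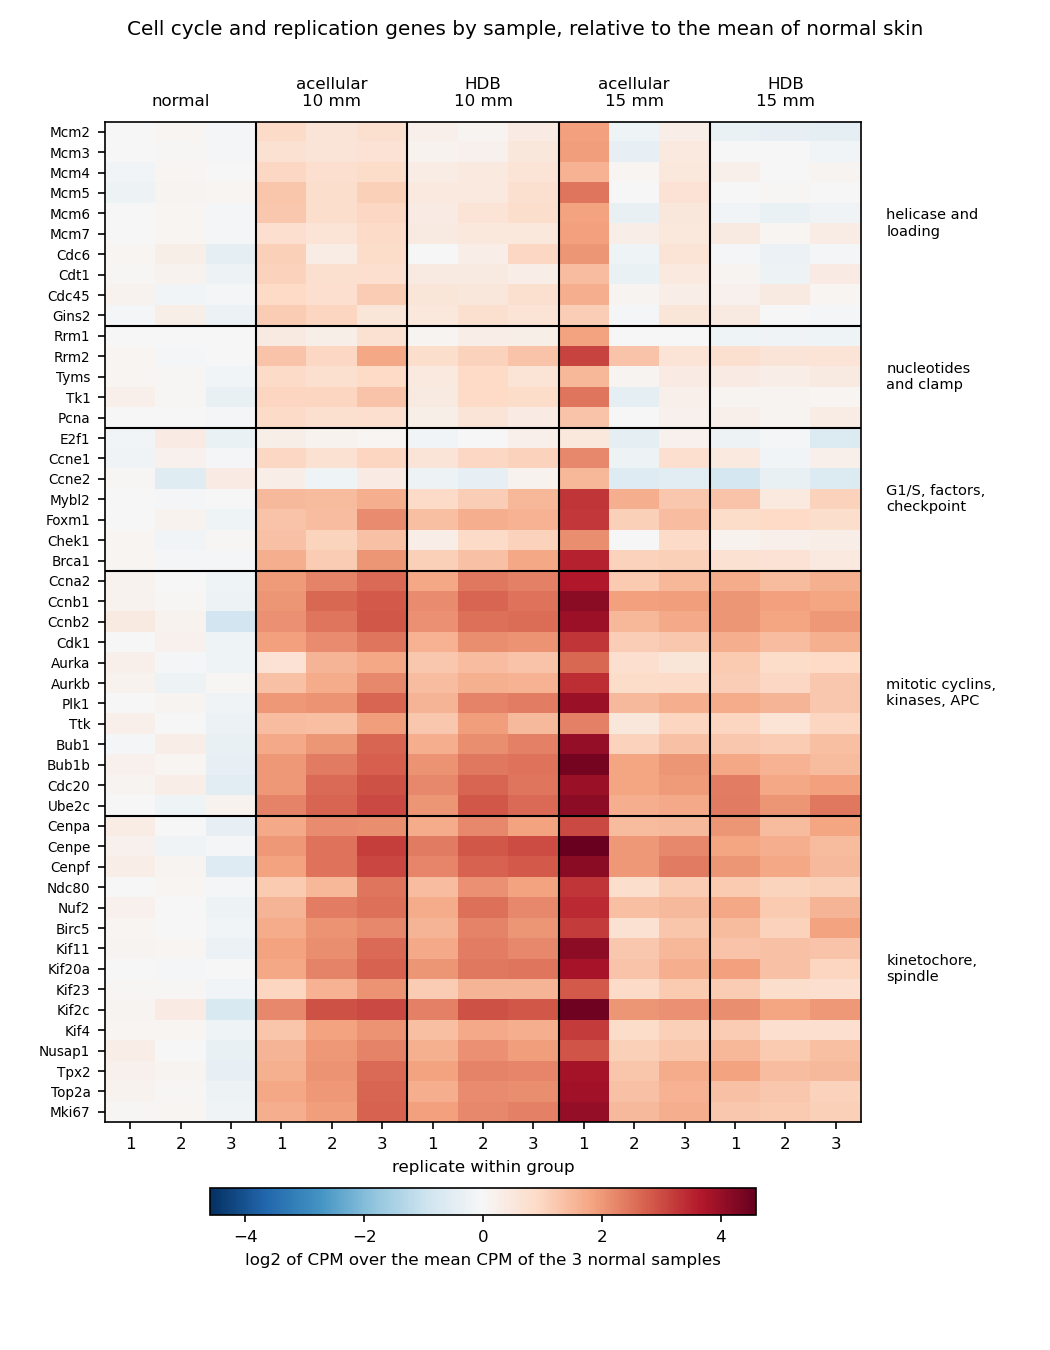
Heat map of the 49 genes (rows, by role) in the 15 samples (columns, by group and replicate), coloured by log2 of CPM over the mean of the 3 normal samples. The mitosis rows are red in all wound samples, the replication rows are paler, and acellular 15 mm replicate 1 is the darkest column.

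**Figure D2:**
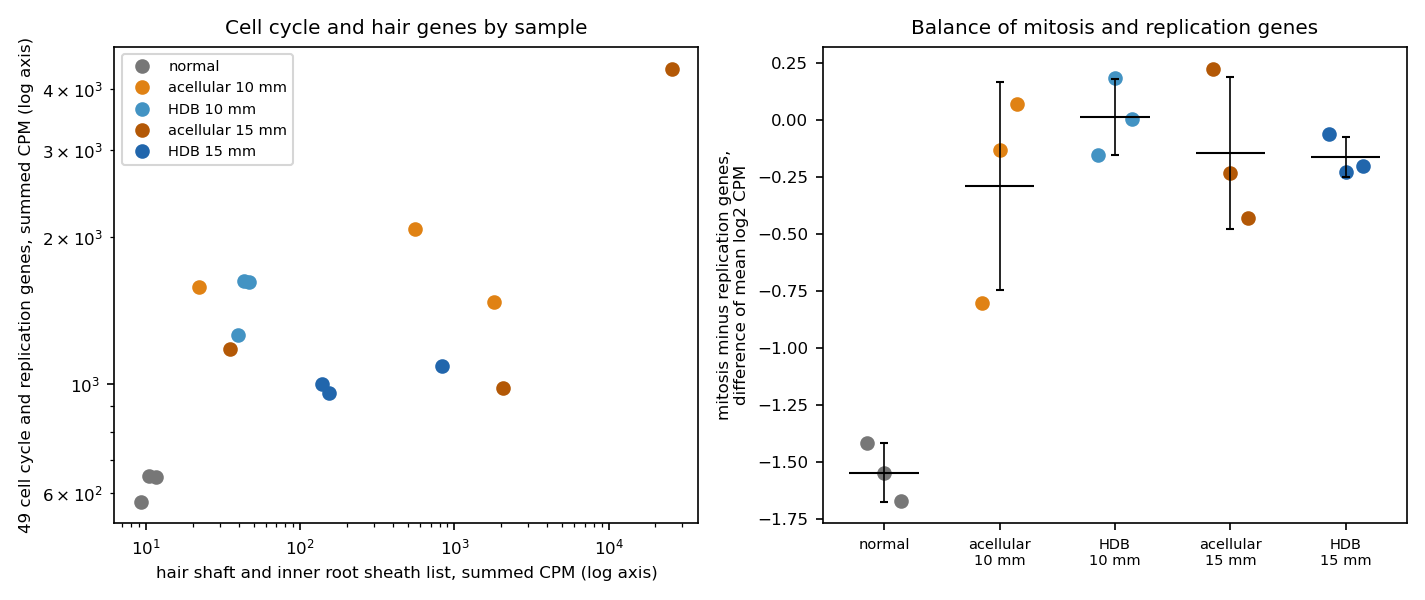
Left, summed CPM of the 49 genes against summed CPM of the hair shaft and inner root sheath list, both on log axes, 1 point per sample. Right, difference of the mean log2 CPM of mitosis and replication genes per sample, with group mean and SD as bars; the normal samples sit between -1.67 and -1.41 and the wounds between -0.80 and 0.23.

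Normal skin had a low but measurable level of all 49 genes. The 2 most abundant genes of each class by mean log2 CPM and Mki67, the antigen whose protein was stained in the study, are described in every sample. By mean CPM, Mcm6 (42.9) would stand above Mcm4 (41.3) and Ccnb1 (28.7) above Cdk1 (27.7). Mki67 coats mitotic chromosomes and marks cycling cells. It stood at 44.8, 45.2 and 38.0 CPM in normal skin, at 135, 161 and 280 CPM in acellular 10 mm wounds, at 158, 196 and 214 CPM in HDB 10 mm wounds, at 698, 121 and 137 CPM in acellular 15 mm wounds and at 101, 98.8 and 91.3 CPM in HDB 15 mm wounds. All wound samples were above all normal samples, and in 15 mm wounds the highest HDB sample lay below the lowest acellular one. Top2a, the topoisomerase that untangles sister chromatids, stood at 31.8, 29.1 and 23.7 CPM in normal skin, 96.4, 113 and 179 CPM in acellular 10 mm, 90.6, 127 and 125 CPM in HDB 10 mm, 407, 71.0 and 84.9 CPM in acellular 15 mm and 72.3, 66.6 and 58.6 CPM in HDB 15 mm wounds. It followed the order of Mki67, except that HDB and acellular 15 mm samples overlapped.

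Cdk1, the kinase that starts mitosis, stood at 8.01, 9.24 and 6.98 CPM in normal skin and at 29.7, 36.4 and 44.8 CPM in acellular 10 mm wounds. It stood at 24.2, 35.7 and 33.8 CPM in HDB 10 mm, at 78.2, 17.8 and 19.1 CPM in acellular 15 mm and at 25.8, 21.3 and 24.8 CPM in HDB 15 mm wounds. Its HDB 15 mm samples thus lay above acellular 15 mm replicates 2 and 3 and below replicate 1. Ccna2, cyclin A2, stood at 13.3, 12.1 and 10.4 CPM in normal skin, at 46.4, 57.6 and 72.4 CPM in acellular 10 mm wounds, at 40.5, 63.5 and 59.3 CPM in HDB 10 mm wounds, at 154, 27.2 and 34.1 CPM in acellular 15 mm wounds and at 38.5, 32.6 and 37.1 CPM in HDB 15 mm wounds. Foxm1, the transcription factor of G2/M genes, stood at 6.60, 7.30 and 5.70 CPM in normal skin and at 16.2, 17.7 and 29.6 CPM in acellular 10 mm wounds. In HDB 10 mm wounds it stood at 17.1, 20.8 and 19.7 CPM, in acellular 15 mm wounds at 61.7, 13.8 and 17.5 CPM and in HDB 15 mm wounds at 11.7, 12.2 and 11.6 CPM. For both genes all wound samples lay above normal skin.

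The replication genes moved over a narrower range. Mcm4 stood at 26.7, 31.3 and 29.2 CPM in normal skin, 55.5, 49.4 and 52.7 CPM in acellular 10 mm, 37.2, 39.8 and 44.8 CPM in HDB 10 mm, 87.0, 30.6 and 41.0 CPM in acellular 15 mm and 34.0, 29.0 and 31.4 CPM in HDB 15 mm wounds. Mcm7 stood at 36.3, 38.6 and 34.3 CPM in normal skin, 62.0, 55.9 and 66.4 CPM in acellular 10 mm, 48.7, 50.5 and 50.4 CPM in HDB 10 mm, 134, 45.3 and 50.7 CPM in acellular 15 mm and 48.7, 39.0 and 46.6 CPM in HDB 15 mm wounds. For both subunits every HDB 10 mm sample lay below every acellular 10 mm sample and above every normal sample. Pcna, the sliding clamp, stood at 92.9, 91.6 and 87.7 CPM in normal skin, 165, 150 and 155 CPM in acellular 10 mm, 110, 136 and 118 CPM in HDB 10 mm, 222, 89.4 and 104 CPM in acellular 15 mm and 106, 98.7 and 114 CPM in HDB 15 mm wounds. Rrm1, the large subunit of ribonucleotide reductase, stood at 47.7, 49.1 and 47.5 CPM in normal skin, 63.5, 58.6 and 78.4 CPM in acellular 10 mm, 52.4, 59.0 and 58.1 CPM in HDB 10 mm, 172, 47.1 and 48.6 CPM in acellular 15 mm and 42.1, 42.6 and 42.0 CPM in HDB 15 mm wounds. Its HDB 15 mm samples were below normal skin. E2f1, an activator of S phase genes, overlapped with normal skin in every wound group, with 9.41, 13.3 and 8.32 CPM in normal skin and 6.61 to 14.4 CPM in wounds.

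**Figure D3:**
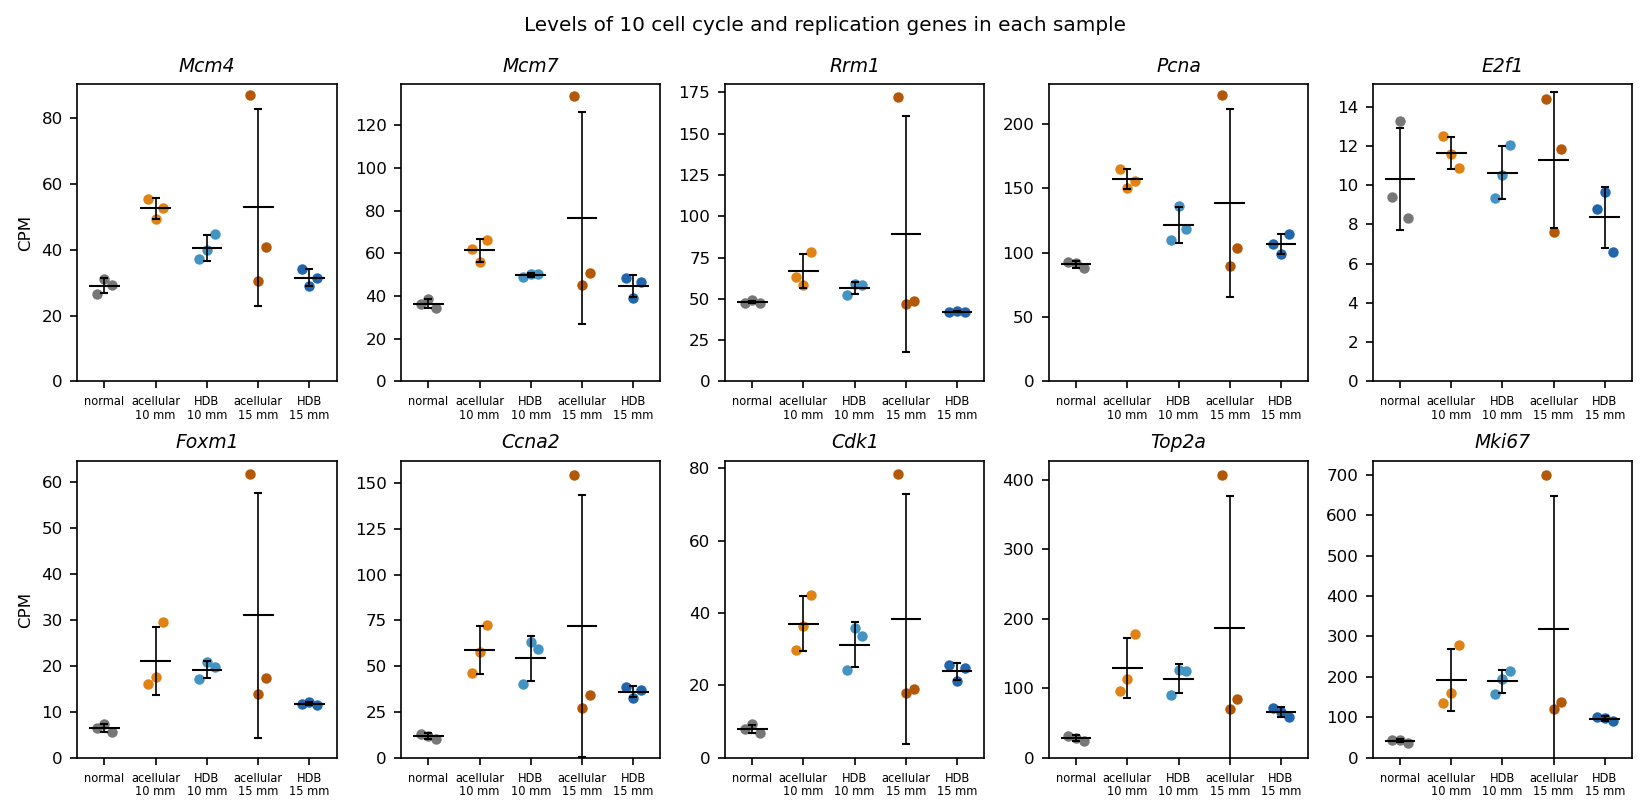
CPM of 10 genes in each sample by group (points), with group mean (line) and SD (error bar), n = 3. Mki67, Top2a, Cdk1, Ccna2 and Foxm1 lie above normal skin in all 12 wound samples, whereas E2f1 in every wound group overlaps with normal skin.

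Groups were compared with the quasi-likelihood test of edgeR, p-values were adjusted by Benjamini and Hochberg's method over 15369 genes, and a gene is said to have risen or fallen at an adjusted p under 0.05. The comparisons of the 4 wound groups with normal skin share the same 3 normal samples. In acellular 10 mm wounds 32 of the 49 genes rose and none fell, where 9.77% of all tested genes rose. In acellular 15 mm wounds 36 rose (17.6% of all genes), in HDB 10 mm wounds 23 (6.1%) and in HDB 15 mm wounds 4 (2.67%), namely Cenpa, Ube2c, Cdc20 and Ccnb1. The median log2 fold change of the 49 genes was 1.69, 2.16, 1.55 and 0.98 in this order of groups, beside medians over all tested genes of 0.03, 0.06, 0.02 and 0.02.

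Without acellular 15 mm replicate 1 46 of the 49 genes rose with acellular beads at 10 mm (19.4% of all genes) and 31 at 15 mm (13.1%), and with HDB 41 rose at 10 mm (14.1%) and 29 at 15 mm (8.85%). Leaving this sample out of the comparisons of other groups (15524 genes then passed the filter) was chosen after the data were seen. The median log2 fold changes were then 1.69, 1.01, 1.55 and 0.98, so only that of the acellular 15 mm group moved. In 33 of the 49 genes all 12 wound samples lay above all 3 normal samples, as did 9.86% of all tested genes. By group, samples lay wholly above normal skin in 47 genes with acellular beads at 10 mm (29.1% of all genes) and 33 at 15 mm (22.5%), and with HDB in 46 genes at 10 mm (25.7%) and 35 at 15 mm (23.8%).

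Genes of mitosis accounted for most of these calls. Of the 27 genes in both mitosis classes, 26 and 27 rose with acellular beads at 10 and 15 mm and 22 and 4 with HDB at 10 and 15 mm, with median log2 fold changes of 2.2, 2.73, 2.13 and 1.53. Without acellular 15 mm replicate 1 the counts were 27, 26, 27 and 27. Of the 15 helicase, loading, nucleotide and clamp genes, 3, 5, 0 and 0 rose in the same order (beside 9.77%, 17.6%, 6.1% and 2.67% of all genes), with medians of 0.85, 0.96, 0.48 and 0.11. Without that replicate 14, 2, 9 and 0 rose (beside 19.4%, 13.1%, 14.1% and 8.85%), so that the 2 of 15 (13.3%) in acellular 15 mm wounds is near the share over all genes. In HDB 15 mm wounds all 27 mitosis genes had all 3 samples above normal skin, as had 4 of the 15 replication genes (23.8% of all genes). In 3 of the 15 (Mcm2, Mcm6 and Rrm1) all 3 samples lay below normal skin, as in 22.6% of all genes, so neither count of replication genes stands far from these shares. None of the 15 was called. The mean log2 CPM of the mitosis genes minus that of the replication genes was -1.54 ± 0.13 (SD, n = 3) in normal skin, -0.29 ± 0.46 in acellular 10 mm, 0.01 ± 0.17 in HDB 10 mm, -0.14 ± 0.34 in acellular 15 mm and -0.16 ± 0.09 in HDB 15 mm wounds. The 12 wound samples did not overlap with normal skin in this difference, which was not tested. Other marker sums moved with the rise. Besides muscle, hair shaft and inner root sheath genes summed to 9.26 to 11.5 CPM in normal skin and 22.1 to 25733 CPM in wounds, without overlap. Likewise 5 wound keratinocyte genes summed to 390 to 527 CPM in normal skin and to 736 to 3848 CPM in wounds. The sums of 7 endothelial genes were 542 to 599 CPM in normal skin and 105 to 431 CPM in wounds, also without overlap, whereas the basal keratinocyte sums overlapped. Their part in these differences was not tested.

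**Figure D4:**
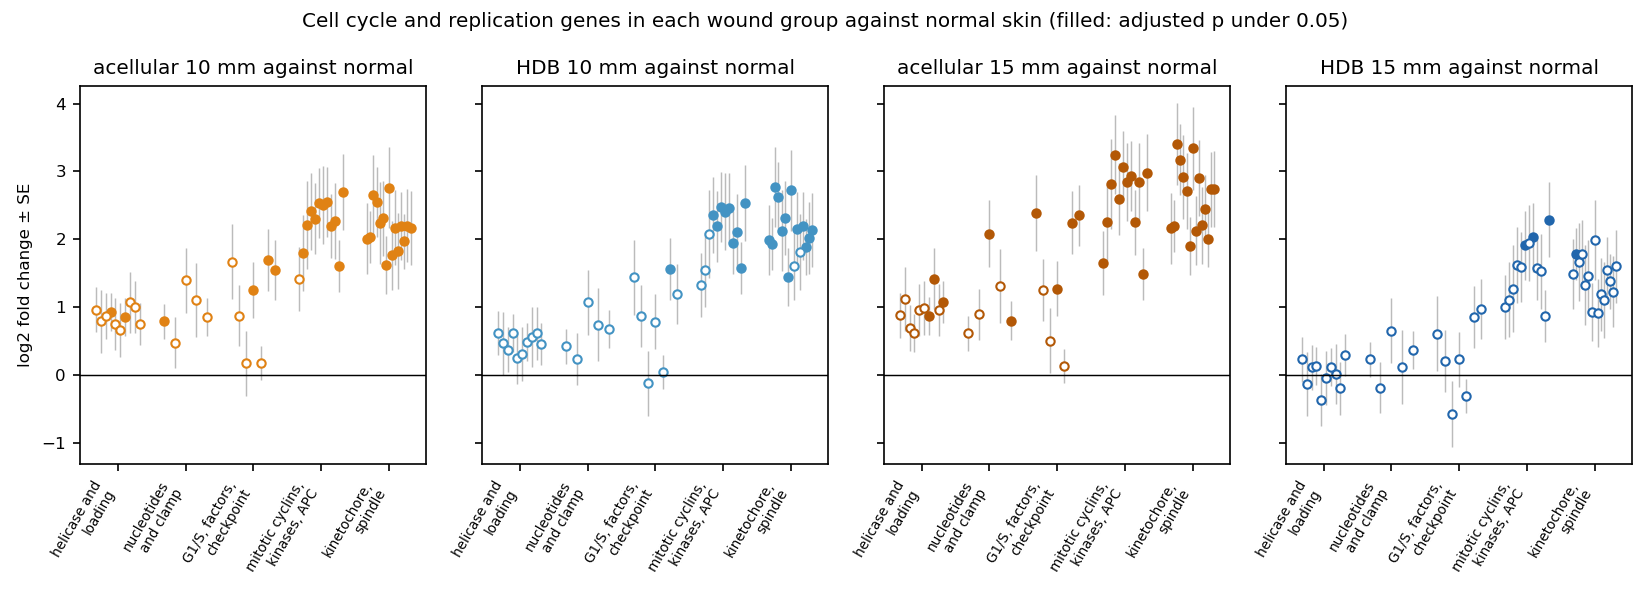
Log2 fold change against normal skin with its SE for each of the 49 genes, by role (x axis) and wound group (panels), with filled points for an adjusted p under 0.05. In every panel the points of both mitosis classes lie above 0, whereas in HDB 15 mm wounds the replication classes lie around 0.

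The largest called rises were in genes of mitosis. In acellular 10 mm wounds Kif2c, a microtubule depolymerase at kinetochores, rose with a log2 fold change of 2.76 (SE 0.60, 6.78-fold, adjusted p = 0.012 in edgeR's test). Ube2c, the ubiquitin-conjugating enzyme of the anaphase-promoting complex, rose by 2.69 (SE 0.56, 6.47-fold, adjusted p = 0.0105) and the kinetochore motor Cenpe by 2.65 (SE 0.59, 6.26-fold, adjusted p = 0.0129). In HDB 10 mm wounds Cenpe rose by 2.77 (SE 0.59, adjusted p = 0.0179), Kif2c by 2.72 (SE 0.60, adjusted p = 0.019) and the kinetochore protein Cenpf by 2.62 (SE 0.52, adjusted p = 0.0143). In acellular 15 mm wounds the checkpoint kinase Bub1b rose by 3.25 (SE 0.58), Kif2c by 3.34 (SE 0.61) and Cenpe by 3.40 (SE 0.60), and without replicate 1 they rose by 1.92, 2.07 and 2.10. Kif2c had 2.18, 2.54 and 1.21 CPM in normal skin and 6.97 to 43.5 CPM in wounds. In HDB 15 mm wounds Ube2c rose by 2.29 (SE 0.55, 4.88-fold, adjusted p = 0.0374), Cdc20, the activator of the same complex, by 2.03 (SE 0.51, 4.08-fold, adjusted p = 0.0404) and cyclin B1 (Ccnb1) by 1.91 (SE 0.51, 3.76-fold, adjusted p = 0.0497).

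Mki67 rose 4.50-fold in acellular 10 mm wounds (log2 2.17, SE 0.55, adjusted p = 0.0198 in edgeR's test), 4.43-fold in HDB 10 mm (2.15, SE 0.55, adjusted p = 0.0304) and 7.47-fold in acellular 15 mm wounds (2.90, SE 0.57, adjusted p = 0.00555), where it was 1.59 on the log2 scale without replicate 1. In HDB 15 mm wounds it was 2.28-fold above normal skin, which did not pass (log2 1.19, SE 0.53, adjusted p = 0.178 in edgeR's test) but passed without acellular 15 mm replicate 1 (1.19, SE 0.23, adjusted p = 0.0108). Of the replication genes, Pcna rose in acellular 10 mm wounds (log2 0.79, SE 0.26, adjusted p = 0.0483 in edgeR's test), and did not pass in HDB 10 mm, acellular 15 mm and HDB 15 mm wounds (0.42, 0.61 and 0.23). Without acellular 15 mm replicate 1 it also rose in HDB 10 mm wounds (0.42, SE 0.10, adjusted p = 0.0133 in edgeR's test). Mcm4 rose in acellular 10 mm (0.85, SE 0.28) and acellular 15 mm wounds (0.86, SE 0.28), and without acellular 15 mm replicate 1 it was not called in the latter (0.30) and rose in HDB 10 mm wounds (0.48, SE 0.12). E2f1 did not pass in any group, with log2 fold changes of 0.17 in acellular 10 mm, 0.04 in HDB 10 mm, 0.13 in acellular 15 mm (-0.0885 without replicate 1) and -0.31 in HDB 15 mm wounds.

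The counts of calls depended on single samples. In acellular 10 mm wounds 20 and 16 genes rose without acellular replicate 1 or 3, and 17, 9 and 6 without normal replicate 1, 2 or 3. In HDB 10 mm wounds 0 and 1 rose without HDB replicate 2 or 3, and 3, 5 and 0 without normal replicate 1, 2 or 3. In HDB 15 mm wounds the count was 0 without HDB replicate 1 or 3 or any normal replicate. In acellular 15 mm wounds it was 28 to 47. Over left-out samples the number of all genes called in either direction ran from 800 to 5582 in acellular 10 mm, 2304 to 5805 in acellular 15 mm, 78 to 4045 in HDB 10 mm and 34 to 2478 in HDB 15 mm wounds.

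The effect of the stromal cell beads was read as HDB against acellular beads within a wound size. In 10 mm wounds 46 of the 49 genes were lower with HDB, with a median log2 fold change of -0.16, and none was called, as for all genes (0% of 15369; 543 had an unadjusted p under 0.05, none of them among the 49, and DESeq2 called none of the 49). Over left-out samples this median ran from -0.28 without acellular 10 mm replicate 1 to 0.03 without acellular 10 mm replicate 3, so its sign rested on single samples. The replication genes were the ones whose samples separated: in 10 of the 49 genes (20.4%, beside 6.47% of all genes) every HDB sample lay below every acellular sample. These were Mcm2, Mcm3, Mcm4, Mcm5, Mcm6, Mcm7, Cdc45, Cdt1, Tk1 and Pcna. All 10 belong to the 15 replication genes, whose median was -0.36, whereas none of the 27 mitosis genes separated in this way and their median was -0.08. The smallest p-values, none passing, were those of Cdt1 (log2 fold change -0.49, SE 0.33), Pcna (-0.37, SE 0.26) and Mcm4 (-0.37, SE 0.28). Cdt1, the loading factor, stood at 18.7, 14.9 and 15.4 CPM with acellular beads and at 11.9, 11.8 and 11.1 CPM with HDB. Hair shaft and inner root sheath genes summed to 22.1 to 1809 CPM in acellular and 39.7 to 46.5 CPM in HDB 10 mm wounds, and 3 marker sums separated the groups: 7 hair matrix transcription factor genes summed to 179 to 334 CPM in acellular and 147 to 178 CPM in HDB wounds, 6 fibroblast genes to 2384 to 3723 and 6315 to 8372 CPM, and 4 adipocyte genes to 77.2 to 164 and 181 to 452 CPM. Their part was not tested.

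In 15 mm wounds all 49 genes were lower with HDB, with a median log2 fold change of -1.08 beside 0.00 over all genes. Over the alternatives other than left-out samples, removal of a trend with transcript length among them, this median ran from -1.11 to -0.95. The level of long genes relative to short genes separated the 2 groups (log2 differences of 0.17, 0.16 and 0.34 with acellular beads and -0.29, -0.13 and -0.39 with HDB). What set this balance was not tested. None passed in edgeR's test, where 2.93% of all genes did, although 30 of the 49 had an unadjusted p under 0.05 (3567 or 23.2% of all genes). DESeq2 called 14 of the 49 lower (9.16% of all genes). The smallest adjusted p-values were 0.0784 for Mcm2 (log2 fold change -1.33, SE 0.39), 0.0889 for Brca1, a DNA repair and checkpoint gene (-1.78, SE 0.55), and 0.0928 for Mybl2 (-1.38, SE 0.43). Mcm2 stood at 92.8, 21.8 and 31.2 CPM with acellular beads and at 20.5, 19.1 and 18.4 CPM with HDB. Brca1 stood at 43.6, 7.94 and 8.02 CPM with acellular beads and at 6.11, 6.06 and 5.20 CPM with HDB. In 7 of the 49 genes (14.3%, beside 11.7% of all genes) the samples did not overlap: Mcm2, Brca1, Foxm1, Rrm1, Mki67, Cenpe and Bub1b.

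This difference rested on acellular 15 mm replicate 1. Without it the median log2 fold change of the 49 genes was -0.06, 19 of them were higher with HDB, and none was called. Mki67 changed from -1.71 (SE 0.54) to -0.41 (SE 0.25), Mcm2 from -1.33 to -0.45 (SE 0.15, adjusted p = 0.136 in edgeR's test) and Brca1 from -1.78 to -0.46 (SE 0.25). Cdk1 changed from -0.68 (SE 0.45) to 0.38 (SE 0.20), Ccna2 from -0.99 (SE 0.50) to 0.24 (SE 0.22) and Pcna from -0.38 (SE 0.26) to 0.14 (SE 0.11). Without acellular replicate 2 or 3 instead, 14 and 18 of the 49 genes fell (3.35% and 11.6% of all genes). Genes of hair shaft and root sheath, in 15 mm wounds, summed to 25733, 2051 and 35.2 CPM with acellular beads and to 836, 155 and 139 CPM with HDB.

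**Figure D5:**
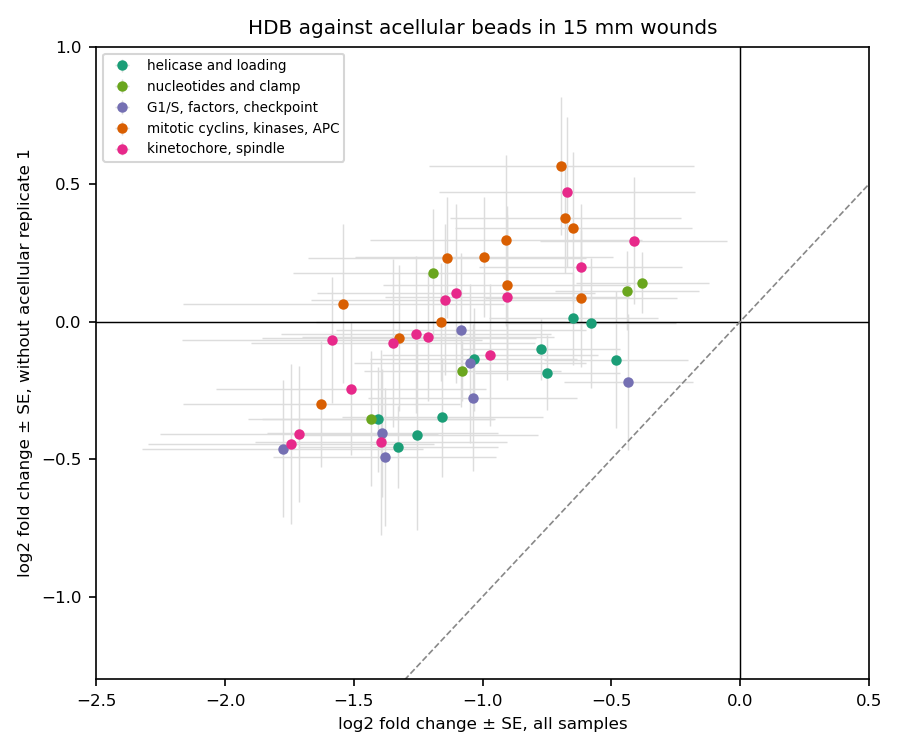
Log2 fold change of HDB against acellular beads in 15 mm wounds with its SE, for all samples (x axis) and without acellular replicate 1 (y axis), 1 point per gene, coloured by role, with the dashed line at equal values. All 49 points lie left of 0 on the x axis, whereas on the y axis they lie on both sides of 0.

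Over both sizes the median log2 fold change of HDB against acellular beads was -0.63 and no gene was called (0% of all genes; 2428 genes, 17 of the 49 among them, had an unadjusted p under 0.05, and DESeq2 called none of the 49). Mcm2 (-0.91, SE 0.27), Mcm5 (-0.96, SE 0.32) and Mybl2 (-0.87, SE 0.30) had the smallest p-values, each with an adjusted p of 0.261 in edgeR's test. Without acellular 15 mm replicate 1 they were -0.48, -0.43 and -0.42 and the median was -0.11. All 15 replication genes stayed below 0 without that replicate (median -0.25), whereas 13 of the 27 mitosis genes were above 0 (median -0.01). Whether the effect of HDB differed between wound sizes was tested as an interaction, which called no gene (0% of all genes; 2063 at an unadjusted p under 0.05, 2 of them among the 49). The median interaction was -0.84 and turned to 0.11 without acellular 15 mm replicate 1. The smallest p-values were those of Cenpe (-1.87, SE 0.77), Mki67 (-1.69, SE 0.75) and Cenpf (-1.47, SE 0.68), which were -0.57, -0.38 and -0.51 without replicate 1.

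Larger wounds were compared with smaller ones under the same beads, and no gene was called with acellular beads (0% of all genes, 2684 at an unadjusted p under 0.05, none of them among the 49) or with HDB (0%, 1896 and none), nor did DESeq2 call any of the 49. With acellular beads 41 of the 49 genes were higher in 15 mm wounds (median log2 fold change 0.34), and all 49 were lower without replicate 1 (median -0.69). Mybl2, Bub1b and Rrm2, with the smallest p-values, changed from 0.81, 0.84 and 0.69 to -0.08, -0.49 and -0.39. With HDB all 49 genes were lower in 15 mm than in 10 mm wounds (median -0.55), and in 35 of them (71.4%, beside 11.8% of all genes) no sample overlapped. The smallest p-values were those of Mcm6 (-0.81, SE 0.39), Cenpe (-1.11, SE 0.55) and the spindle checkpoint kinase Ttk (-0.71, SE 0.37), with adjusted p-values of 0.421, 0.439 and 0.47 in edgeR's test. Cenpe stood at 21.7, 29.5 and 32.5 CPM in HDB 10 mm and at 14.4, 13.0 and 11.4 CPM in HDB 15 mm wounds. Of the marker sums, 3 also separated HDB 10 mm from HDB 15 mm wounds: hair shaft and inner root sheath genes with 39.7 to 46.5 and 139 to 836 CPM, 5 sebaceous gland genes with 838 to 1678 and 560 to 735 CPM, and 6 macrophage genes with 123 to 192 and 197 to 363 CPM. With acellular beads the sebaceous sums (1045 to 1303 and 425 to 621 CPM) and the adipocyte sums (77.2 to 164 and 294 to 1203 CPM) separated the sizes. Their part was not tested. A 15 mm wound also received more beads and cells, so wound size and cell dose cannot be told apart in the HDB groups.

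Other genes of the same machinery were read from 6 lists of 101 genes, with log2 fold changes against normal skin and their SE. Of 30 further mitosis genes, 28 and 29 rose against normal skin with acellular beads at 10 and 15 mm, and 23 and 8 with HDB at 10 and 15 mm, and without acellular 15 mm replicate 1 these were 30, 29, 29 and 28. Cdc25c, the phosphatase that activates Cdk1, rose by 3.11, 3.64, 3.11 and 2.58 on the log2 scale (SE 0.60 to 0.61), and Cdkn3 by 2.52, 2.09, 2.46 and 1.82 (SE 0.40). Aspm, a spindle pole protein, rose by 2.48, 2.87, 2.60 and 1.70, and the condensin subunit Ncapg by 2.41, 3.14 and 2.38 in all groups but HDB 15 mm. In acellular 15 mm wounds these values were 2.59 for Cdc25c, 1.53 for Cdkn3, 2.19 for Aspm and 1.76 for Ncapg without replicate 1. Smc4, the most abundant gene of the list, rose by 1.13, 1.28 and 1.09 in the same 3 groups as Ncapg, and by 0.76 in acellular 15 mm wounds without replicate 1. Of 31 further replication genes, in the same order of groups, 3, 9, 0 and 0 rose (beside 9.77%, 17.6%, 6.1% and 2.67% of all tested genes) and 1, 0, 0 and 0 fell. The 3 of 31 are thus near the share over all genes. Without that replicate 22, 2, 10 and 4 rose (19.4%, 13.1%, 14.1% and 8.85% of all genes). Dbf4, the activator of the Cdc7 kinase, rose in acellular 10 mm (1.41, SE 0.45) and acellular 15 mm wounds (1.97, SE 0.45), the clamp loader subunit Rfc3 rose in acellular 10 mm wounds (0.78, SE 0.22), and the origin recognition subunit Orc3 fell there (-0.44, SE 0.14). Mcm10 rose in acellular 15 mm wounds (2.23, SE 0.59), and Rpa1, the most abundant gene of that list, was called in no comparison with all samples but fell in acellular 15 mm (-0.60), HDB 10 mm (-0.43) and HDB 15 mm wounds (-0.40) without that replicate.

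Genes upstream of these were called in both directions. Of 6 G1 cyclins and their kinases, Cdk6 rose in acellular 10 mm (0.89, SE 0.13), acellular 15 mm (0.91, SE 0.13) and HDB 10 mm wounds (0.99, SE 0.13), and Cdk4 (1.12, SE 0.30) and Cdk2 (0.95, SE 0.29) rose and cyclin D3 (Ccnd3) fell (-0.45, SE 0.14) in acellular 15 mm wounds. Ccnd2, the most abundant of them, was not called. Of 7 CDK inhibitors, Cdkn1a (p21) rose in acellular 10 mm (0.82, SE 0.26) and acellular 15 mm wounds (0.97, SE 0.26), and Cdkn2b (p15) in acellular 15 mm (1.28, SE 0.36) and HDB 15 mm wounds (1.43, SE 0.37). Of 16 genes of the pocket protein, E2F and DREAM families, none rose in acellular 10 mm, HDB 10 mm or HDB 15 mm wounds with all samples (5, 3 and 2 without acellular 15 mm replicate 1, beside 19.4%, 14.1% and 8.85% of all genes), and 5 rose in acellular 15 mm wounds (17.6% of all genes, and 1 without that replicate, beside 13.1%), among them E2f2 (2.05, SE 0.45), E2f8 (1.84, SE 0.58) and Tfdp1 (0.75, SE 0.24). Rbl2 (p130), the pocket protein of resting cells, fell in acellular 10 mm (-0.46, SE 0.13), acellular 15 mm (-0.38, SE 0.13) and HDB 15 mm wounds (-0.56, SE 0.13), E2f6 fell in both acellular groups (-1.07 and -1.08, SE 0.32) and Tfdp2 in HDB 15 mm wounds (-0.55, SE 0.14). Of 11 p53 and DNA damage genes, Trp53 rose in acellular 10 mm (0.95), acellular 15 mm (1.11) and HDB 10 mm wounds (0.75, SE 0.21 each). Wee1, the kinase that restrains Cdk1, fell in acellular 15 mm (-1.16), HDB 10 mm (-0.98) and HDB 15 mm wounds (-1.25, SE 0.23 to 0.24), Ccng1 fell (-1.82, SE 0.58) and Clspn rose (1.67, SE 0.55) in acellular 15 mm wounds. Without acellular 15 mm replicate 1, the calls of that group were lost for Cdk2 (0.37), Ccnd3 (-0.35), Cdkn1a (0.58), Tfdp1 (0.28), E2f8 (0.37), Rbl2 (-0.27), E2f6 (-0.999), Mcm10 (0.86), Clspn (0.32) and Ccng1 (-1.57), and those of Cdk4 (0.51), Cdk6 (1.03), Cdkn2b (1.38), E2f2 (1.02), Dbf4 (0.99), Trp53 (0.82) and Wee1 (-1.46) remained. In the other groups calls were gained. E2f2 rose in acellular 10 mm (1.16), HDB 10 mm (0.96) and HDB 15 mm wounds (0.90), as did Cdk4 (0.79, 0.48 and 0.68). Cdk2 (0.77 and 0.57), Tfdp1 (0.50 and 0.35), Clspn (0.91 and 0.90), Dnmt1 (0.60 and 0.45) and Mcm10 (1.67 and 1.27) rose in acellular 10 mm and HDB 10 mm wounds, and E2f8 (0.94) in acellular 10 mm wounds. Cdkn1a (0.55 and 0.69), Dbf4 (1.34 and 0.94) and Rfc3 (0.44 and 0.43) rose in HDB 10 mm and HDB 15 mm wounds, and Trp53 (0.79), Ncapg (1.61) and Smc4 (0.59) in HDB 15 mm wounds. Rbl2 (-0.33) and E2f6 (-0.97) fell in HDB 10 mm wounds.

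Between HDB and acellular beads 3 of these 101 genes were called, all lower with HDB in 15 mm wounds, a share near the 2.93% of all tested genes called there. The same 3 were called without acellular replicate 1 (0.979% of all genes). The DNA methyltransferase Dnmt1, which copies methylation at the replication fork, stood at 201, 66.0 and 75.0 CPM with acellular beads and at 49.7, 48.7 and 36.9 CPM with HDB. It fell by 1.34 on the log2 scale (SE 0.33, adjusted p = 0.0495 in edgeR's test), and by 0.64 without replicate 1 (adjusted p = 0.0477). Cdk6, the kinase partner of D cyclins, stood at 58.0, 66.1 and 85.9 CPM with acellular beads and at 51.5, 47.2 and 43.3 CPM with HDB. It fell by 0.57 (SE 0.13, adjusted p = 0.0476), and by 0.68 without replicate 1 (adjusted p = 0.0365). The damage kinase Atm stood at 68.3, 47.1 and 54.1 CPM with acellular beads and at 33.1, 36.0 and 28.0 CPM with HDB, and fell by 0.80 (SE 0.15, adjusted p = 0.025), or by 0.64 without replicate 1 (adjusted p = 0.048). In each of the 3 genes no sample overlapped, as in 11.7% of all genes. Over the 14 alternatives adjusted p-values reached 0.464 for Dnmt1, 0.679 for Cdk6 and 0.464 for Atm. All 3 calls were lost when a trend with transcript length was removed, with log2 fold changes of -1.15, -0.12 and -0.43 (adjusted p 0.254, 0.643 and 0.268 in edgeR's test). They were also lost when only the groups compared were fitted (-1.35, -0.58 and -0.82, adjusted p 0.464 in each). The same held without any 1 of the HDB 15 mm replicates (-1.41 to -1.21, -0.63 to -0.50 and -0.89 to -0.71). In each of these settings the calls over all tested genes also went from 450 to 0. Those of Dnmt1 and Cdk6 were lost with no filter (-1.34 and -0.56, adjusted p 0.0628 in both in edgeR's test), and that of Cdk6 without TMM (-0.61, adjusted p 0.0522). With the replicate number as a block shared by all 5 groups, the log2 fold changes of Dnmt1, Cdk6 and Atm were -1.26, -0.56 and -0.79. Their adjusted p-values in edgeR's test were 0.0719, 0.0713 and 0.0451. Over all tested genes 199 were called with no filter, 886 without TMM and 179 with this block.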

How the data were processed

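The deposited table holds expected counts per gene, which the authors made from mRNA selected with oligo(dT) beads. Their processing notes name HISAT2 2.0.4, Bowtie2 2.2.5, RSEM 1.2.12 and the GRCm38.p6 build. Expected counts need not be whole (2074 to 2237 genes per sample had decimals) and were rounded. Of the 49 genes, 7 had decimal counts in some sample, where reads were shared between loci, and exons of 12 overlap a gene on the other strand, whose reads cannot be separated if strand was not used.

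Genes passing edgeR's filterByExpr (15369 of 18834 with counts) were fitted over all 5 groups (R 4.3.3, edgeR 4.0.16, limma 3.58.1, DESeq2 1.42.0). SE is the absolute log2 fold change over the root of F, and CPM uses TMM factors. The fits were first tested on simulated data. The genes and lists were chosen with earlier results of these data known. Named are the 2 most abundant genes per class and Mki67, and up to 3 per comparison and direction by size of change among called genes (by p where none was called). From the further lists the most abundant gene and up to 2 called genes per direction are named. Abundance was ranked by mean log2 CPM over the 15 samples. Same-numbered samples deviated together between acellular and HDB at 15 mm (correlations 0.40, 0.17 and 0.18), as seen in the data and not in the labels. In some other pairs of groups such correlations were negative (-0.54 for replicate 2 of HDB 10 mm and HDB 15 mm). The replicate block was fitted over all 5 groups, so it is not a pairing of the 15 mm samples alone. Alternatives were DESeq2, no TMM, no filter or a mean of at least 50 counts, only the groups compared, a replicate block, removal of a length trend, left-out samples, and a log2 fold change of at least 1.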

Additional observations from a re-analysis of the deposited data

How the results depend on the processing

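Of the genes called against normal skin, DESeq2 counted 17 in HDB 15 mm wounds (4 in edgeR's test), library size scaling without TMM 15 and a fit of only the groups compared 33, which also counted 39 in HDB 10 mm and 1 in acellular 15 mm wounds. With the replicate block 1 gene was called in HDB 15 mm wounds, and 0 with the block and the length trend removed. The calls over all genes moved too: in HDB 15 mm wounds from 796 to 2370, 2084, 3401, 237 and 285 in this order of settings, and in the fit of only the groups compared from 1895 to 2988 in HDB 10 mm and from 4642 to 972 in acellular 15 mm wounds. The block changed no count of the 49 genes by more than 1.5 times in any other comparison, and at 15 mm 0 were called between HDB and acellular beads with and without it. DESeq2 called 14 there. Left-out samples gave 0 to 18 called genes for HDB against acellular at 15 mm, and against normal skin 6 to 46 in acellular 10 mm, 28 to 47 in acellular 15 mm, 0 to 41 in HDB 10 mm and 0 to 29 in HDB 15 mm wounds. Without acellular 15 mm replicate 1 the sign reversed in 19 of the 49 genes for HDB against acellular at 15 mm and in 41 for 15 against 10 mm with acellular beads. Among the genes named for each comparison these were 8 values, given here as the range over left-out samples. They were HDB against acellular at 15 mm in Pcna (-0.62 to 0.14), Ccna2 (-1.39 to 0.24) and Cdk1 (-1.02 to 0.38), acellular 15 mm against normal skin in Rrm1 (-0.00799 to 1.198) and E2f1 (-0.0885 to 0.345), and 15 against 10 mm with acellular beads in Rrm2 (-0.39 to 1.09), Mybl2 (-0.0776 to 1.16) and Bub1b (-0.49 to 1.23). E2f1 against normal skin also reversed without normal replicate 3 in acellular 15 mm (-0.00711) and, in HDB 10 mm wounds (-0.0863 to 0.263), without HDB replicate 3 (-0.0570), normal replicate 1 (-0.0140) or normal replicate 3 (-0.0863). The cause was not tested. With 3 samples a group, a gene that was not called is not shown to be unchanged.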
